A study of Mus musculus with 15 samples.

Results

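The matrix metalloproteinases (MMPs), the ADAM and ADAMTS proteinases and their tissue inhibitors (TIMPs) were examined in mouse trigeminal ganglia (TG), the ganglia that hold the cell bodies of the sensory neurons of the cornea. Members were the protein-coding genes whose symbols start with Mmp, Adam or Timp and a digit, or with Adamts. Of the 55573 genes in the count table, 83 fitted this rule, and the 50 with a mean of 10 or more reads over the 15 libraries are reported. They comprised 14 of 22 Mmp genes, 12 of 33 Adam genes, 20 of 24 Adamts and Adamtsl genes and all 4 Timp genes. The rule used symbols and mean counts and no difference between treatments, but it was set with earlier results of these data known. Moreover, 4 members reached the minimum only through 1 group, Mmp13, Timp1 and Adamts14 through RvD6 and Adamts8 through vehicle. Counts and medians over the 50 members are therefore descriptions.

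Male CD1 mice, 10 weeks old by the methods of the study, had the epithelium and front stroma removed from the centre of the right cornea. All groups therefore carried the same injury, and a drop of the antibiotic tobramycin was given to each injured eye. The eye then received vehicle (no lipid mediator, composition not given in the sources used here), the docosanoid RvD6 (labelled RvD6-standard) or its stereoisomer RvD6si (labelled RvD6-isomer), with the lipids applied 3 times a day for 12 days, and the TG of the injured side was sequenced at the end (n = 5 libraries per group). RvD6si was a chromatographic fraction pooled from tears and cornea culture medium of mice given PEDF and DHA, and the dose of either lipid in this experiment is not given in the sources used here. The methods give 5 TG per group, but the labels do not say that each library came from a separate animal, so p-values measure the spread between these libraries. Library totals ranged from 4125962 to 9903396 counted reads (median 7756538). They ranged from 7421910 to 9903396 in vehicle, from 5336073 to 9618944 in RvD6 and from 4125962 to 8762636 in RvD6si.

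MMPs, ADAMs and ADAMTS proteinases are metzincins, zinc enzymes that are made as inactive precursors. Together they cut collagens, proteoglycans and the outer parts of membrane proteins, and in nerve they take part in myelin and matrix remodelling, in axon growth after injury and in the shedding of adhesion molecules and receptors. TIMPs block the active site, and several ADAMs (ADAM11, ADAM22 and ADAM23) have lost the catalytic residues and serve as receptors of the LGI proteins at axons and synapses.

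The shared catalytic site can be read in the coding sequence. The metzincin zinc-binding motif, an 11-codon stretch with 3 histidine codons, was searched for in the longest coding sequence of each gene in GENCODE release M21. The residues sought were HExxHxxGxxH, where x is any residue and N or D was also allowed in place of the G. It was found in 36 of the 50 members and in 74 of 21490 protein-coding genes (0.344%). All 14 MMPs, 8 of 12 ADAMs and 14 of 20 ADAMTS and ADAMTSL genes had it, and none of the 4 TIMPs did. The ADAMs without a match were Adam11, Adam22, Adam23 and Adam2, and those of the ADAMTS group were the 5 Adamtsl genes and Adamts8. A gene with the 3 histidines but another residue in place of the G, N or D counts as without a match. A missing match alone, as for Adamts8, therefore does not show that the catalytic site is lacking. The coding bases of the motif are given on the coding strand, 5′ to 3′ (GRCm38), for the enzymes on which the results turn, with the histidine codons in capitals. In the MMPs shown the stretch lies within 1 exon, and in Adam10 and Adamts15 an intron splits it, so that their coordinates include the intron. In these coordinates chr9.0 stands for chr9, and likewise for the other chromosomes written with the same ending.
Mmp13 (chr9.0:7276573-7276605, exon 5): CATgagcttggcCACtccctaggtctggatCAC
Mmp8 (chr9.0:7563086-7563118, exon 5): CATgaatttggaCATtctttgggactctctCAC
Mmp9 (chr2.0:164951133-164951165, exon 8): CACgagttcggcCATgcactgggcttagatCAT
Mmp2 (chr8.0:92839279-92839311, exon 8): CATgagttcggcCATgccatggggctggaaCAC
Mmp14 (chr14.0:54437627-54437659, exon 5): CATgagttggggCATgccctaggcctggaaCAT
Mmp16 (chr4.0:18051748-18051780, exon 5): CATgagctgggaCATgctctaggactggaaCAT
Adam9 (chr8.0:24990326-24990358, minus strand, exon 11): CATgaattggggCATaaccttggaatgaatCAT
Adam10 (chr9.0:70754296-70761585, exons 9 and 10): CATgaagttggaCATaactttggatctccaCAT
Adamts15 (chr9.0:30911255-30911690, minus strand, exons 2 and 3): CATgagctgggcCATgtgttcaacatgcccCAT

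The members differed widely in level. Levels of different genes were compared as CPM per kilobase of exon, where CPM are counts scaled to TMM-normalized library sizes, over all 15 libraries. Timp2 was the highest at 184 CPM per kb, ahead of Adam10 at 34.3, Timp3 at 33.9 and Mmp2 at 19.7 CPM per kb. In the vehicle libraries Adam10 (26.4 ± 2.52 CPM per kb, SD, n = 5) and Timp3 (24.2 ± 3.03) lay within 1 SD of each other, as did Adam22 (7.51 ± 0.971), Adam23 (7.40 ± 1.20) and Mmp15 (7.94 ± 1.53). Adamtsl5 (12.2 CPM per kb), Mmp8 (11.7), Adamts5 (10.7), Adam11 (9.20) and Adam22 (8.92) followed over all libraries. The lowest reported member was Adamts12 at 0.252 CPM per kb. The mean of Mmp8 was 5.03 CPM per kb in vehicle and 25.8 CPM per kb in RvD6.

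**Figure D1:**
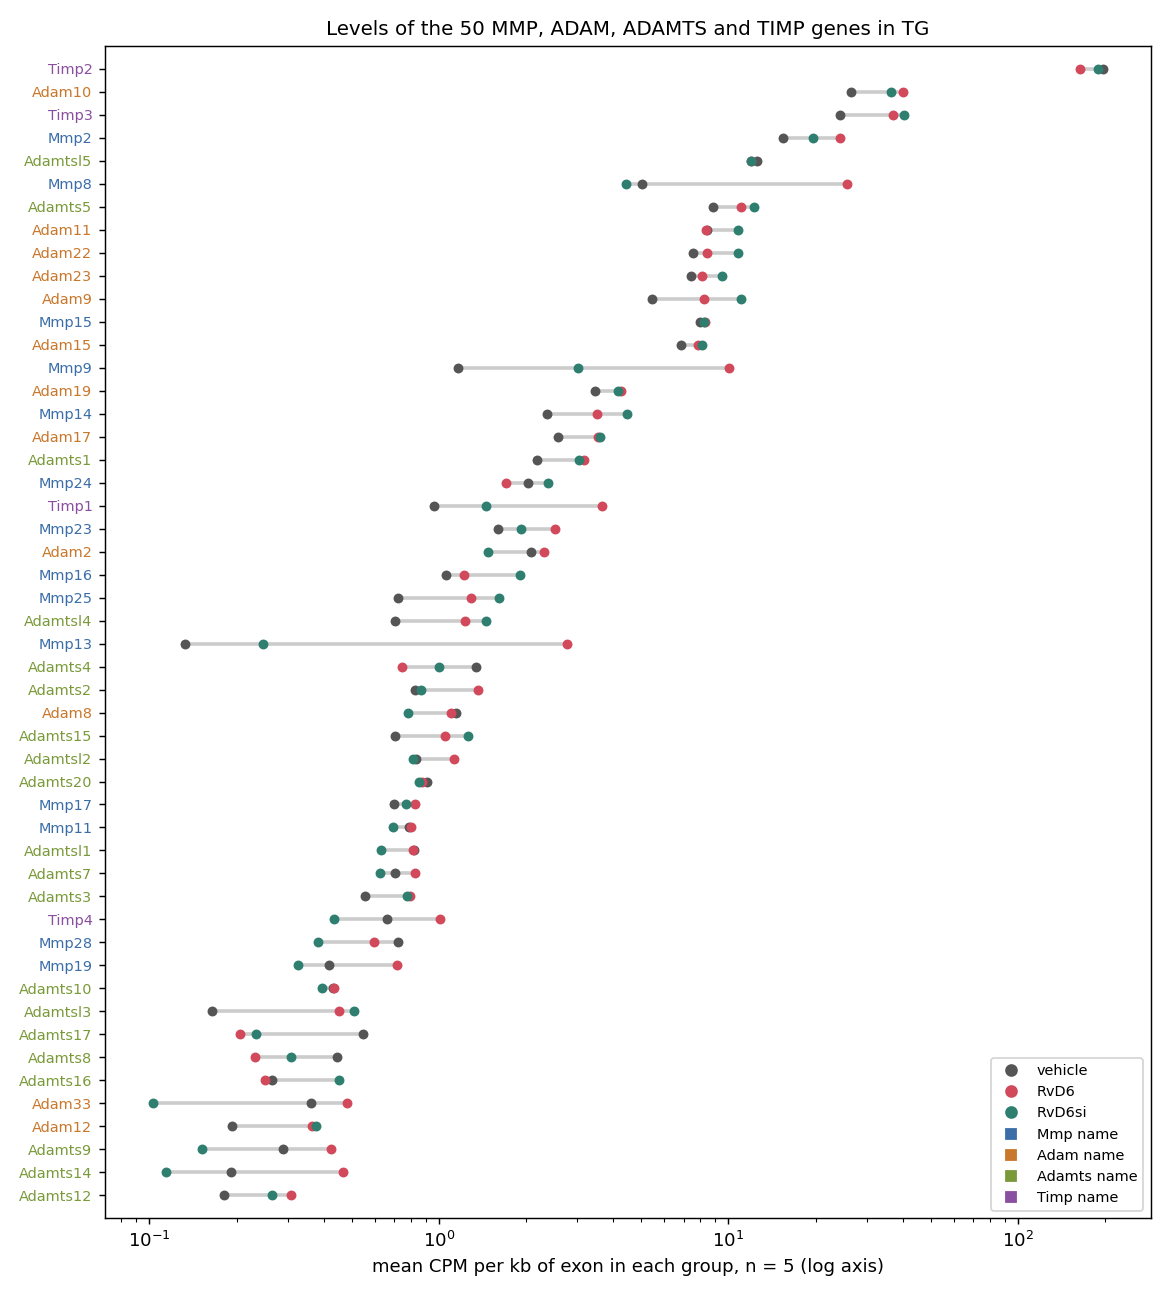
Mean CPM per kb of exon (log axis) of the 50 members in vehicle, RvD6 and RvD6si (5 libraries each; grey lines join the lowest and highest group mean), ordered by the mean over all libraries, with names coloured by family. Timp2 stands at the top at about 184 CPM per kb, and the widest spacing between groups is that of Mmp13, Mmp9 and Mmp8, where RvD6 is highest.

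No member passed the adjusted threshold of 0.05 in the quasi-likelihood test of edgeR in any comparison, although DESeq2 passed several. With RvD6si against vehicle, edgeR called 0 of 50 members (0.67% of the 16567 genes tested were called), and 12 members were below an unadjusted p of 0.05, 11 higher and 1 lower (16% of all genes, 8.69% higher and 7.3% lower). The 12 became 8 of 50 with the trend of fold change on gene length removed, a fit whose share over all genes is not given here. DESeq2 called 6 of the 26 members to which it gave an adjusted p, all higher: Timp3, Mmp14, Adam9, Adam22, Adamts15 and Mmp16 (7.72% of all genes with an adjusted p were called, 4.6% higher). With RvD6 against vehicle, edgeR called 0 of 50 members and 0% of all genes, and 8 members were higher and none lower at an unadjusted p under 0.05 (13.6% of all genes, 7.63% higher and 5.99% lower). DESeq2 called 3 of 50, Mmp13, Mmp9 and Mmp2, all higher (1.9% of all genes, 1.43% higher), and Mmp13 is among the members only because its RvD6 counts are high. Between the 2 lipids, edgeR called 0 of 50 (0.235% of all genes), 7 members were below an unadjusted p of 0.05, 2 higher and 5 lower with RvD6si (8.82% of all genes, 4.18% higher and 4.64% lower), and DESeq2 called only Mmp13, lower with RvD6si (0.974% of all genes, 0.704% lower). The median log2 fold change of the members was 0.25 for RvD6si and 0.43 for RvD6 against vehicle, beside 0.015 and 0.024 over all genes tested. The RvD6si median was 0.086 without RvD6si replicate 15 and 0.12 with the trend of fold change on gene length removed, and the RvD6 median was 0.27 without RvD6 replicate 9. Fold changes were above 0 for 30 of 50 members with RvD6si and 38 of 50 with RvD6, beside 51.2% and 52.2% of all genes. Between the lipids, 22 of 50 were above 0, beside 49.5% of all genes. Over the 46 members that reached the minimum without any 1 group, 12 were below an unadjusted p of 0.05 with RvD6si and 6 with RvD6, with medians of 0.25 and 0.37. The comparisons with vehicle share the vehicle libraries.

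**Figure D2:**
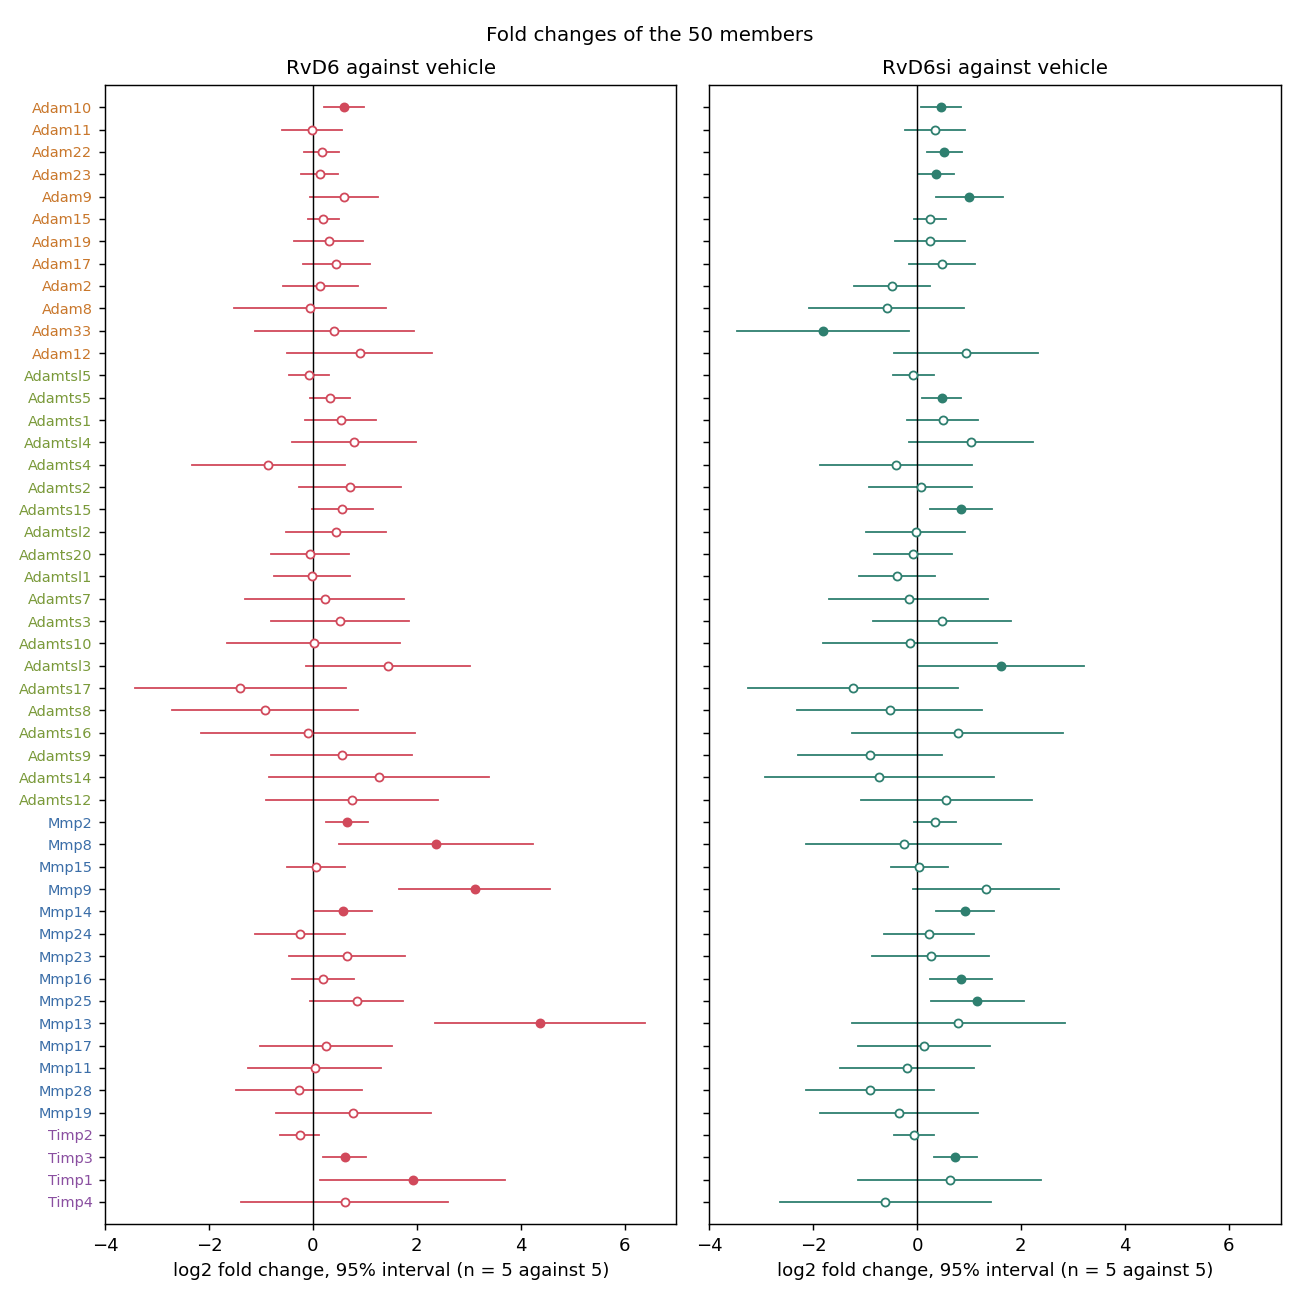
Log2 fold change (edgeR, points) with its 95% interval (bars) of the 50 members for RvD6 (left) and RvD6si (right) against vehicle, 5 libraries against 5, grouped by family and ordered by level within it. Filled points have an unadjusted p under 0.05; no point passes the adjusted threshold, and Mmp13, Mmp9 and Mmp8 lie farthest to the right with RvD6.

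One RvD6si library, replicate 15, stood apart from the other 4 in blood and marrow genes. Its 10 markers of neutrophils and their precursors (such as S100a8, S100a9, Ngp and Mpo) summed to 2240 CPM against 65.2 to 140.4 CPM in the other RvD6si libraries, and its 4 erythroid markers to 7177 against 619 to 1714 CPM. The RvD6 libraries were also rich in these genes. Their neutrophil sum was 806 to 2583 CPM against 139 to 698 CPM in vehicle, with a higher mean for 10 of 10 markers, and their erythroid sum was 3751 to 6777 against 1544 to 3216 CPM. Summed bone markers were 51.8 to 137 CPM in RvD6, 26.5 to 57.6 CPM in vehicle and 26.0 to 106 CPM in RvD6si. No marker of these 3 lists was at 0 in every library. Summed satellite glia markers were 4721 to 6413 CPM in RvD6 and 4318 to 6302 CPM in RvD6si, below the 6529 to 7909 CPM of vehicle. Apoe was by far the most abundant of these 4 markers, with means of 6716 CPM in vehicle, 5167 in RvD6 and 5089 in RvD6si. The mean was higher than in vehicle for 1 of 4 markers with each lipid, Kcnj10 (97.8, 99.8 and 112 CPM in the same order). Sensory neuron markers (4224 to 7434 CPM) and Schwann cell markers (11679 to 21227 CPM) were present in all 15 libraries. Pituitary markers summed to between 8.66 and 3744 CPM within vehicle alone. Skeletal muscle markers summed to 74.3 to 2183 CPM in RvD6, 15.3 to 137.7 CPM in vehicle and 7.48 to 25.5 CPM in RvD6si. Sums of the fibroblast, macrophage, endothelium and mural cell lists overlapped between all groups. In bulk tissue, more cells of a type and more RNA per cell cannot be told apart.

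The TIMPs were the first group by role. Timp2, the most abundant, binds pro-MMP2 as well as inhibiting active MMPs, and its level was 817, 979, 798, 746 and 489.5 CPM in the vehicle samples, 751, 704, 655, 422 and 669.9 CPM in the RvD6 samples and 550.0, 825, 650.1, 807 and 862 CPM in the RvD6si samples. The groups overlapped, and the log2 fold change was -0.0521 ± 0.18 (SE, edgeR adjusted p = 0.925) for RvD6si and -0.26 ± 0.18 (SE, edgeR adjusted p = 0.565) for RvD6.

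Timp3 (chr10:86300372-86349506, plus strand) encodes the TIMP that binds to the extracellular matrix and also inhibits ADAM10, ADAM17 and several ADAMTS enzymes. It was at 185, 224, 167, 221 and 188 CPM in the vehicle samples, 227, 287, 222, 423 and 347 CPM in the RvD6 samples and 456, 249, 339.5, 358 and 242 CPM in the RvD6si samples. All 5 RvD6si libraries were above the highest vehicle library, one of 3 such members in that comparison (4.91% of all genes did not overlap, 2.45% higher and 2.46% lower), and 4 of 5 RvD6 libraries were. The log2 fold change with RvD6si was 0.74 ± 0.20 (SE, edgeR adjusted p = 0.0781), and DESeq2 gave an adjusted p of 0.00952. It ranged from 0.59 to 0.83 when any 1 library was left out. With the trend of fold change on gene length removed (a lowess curve over all genes) it was 0.59. With RvD6 it was 0.61 ± 0.20 (SE, edgeR adjusted p = 0.196), and the 2 lipids differed by 0.13 ± 0.19 (SE, edgeR adjusted p = 0.898), with a 95% interval of -0.28 to 0.54. Timp3 lies within the synapsin gene Syn3 on the opposite strand and shares 1733 exonic bases with it. No strand option is given for the counting, so part of the reads on shared bases may be unassigned or belong to Syn3.

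Timp1, the TIMP that inflammation and injury raise in many tissues, was low at 0.302, 1.86, 1.23, 0.412 and 0.459 CPM in the vehicle samples, 4.99, 1.59, 3.70, 4.63 and 1.39 CPM in the RvD6 samples and 0.312, 3.85, 1.41, 0 and 0.906 CPM in the RvD6si samples. The counts behind these values were 3, 15, 11, 3 and 4 reads in vehicle, 46, 13, 19, 27 and 10 in RvD6 and 2, 35, 11, 0 and 4 in RvD6si. Of the RvD6 libraries 3 of 5 were above all vehicle libraries, with a log2 fold change of 1.92 ± 0.85 (SE, edgeR adjusted p = 0.332). For RvD6si it was 0.63 ± 0.84 (SE, edgeR adjusted p = 0.768). Timp4, which shares 90 exonic bases with Syn2 on the opposite strand, was at 2.01, 0.497, 0, 8.11 and 8.94 CPM in the vehicle samples, 9.33, 8.95, 6.04, 4.46 and 0.975 CPM in the RvD6 samples and 4.21, 0, 3.71, 3.47 and 1.36 CPM in the RvD6si samples. Its spread within each group was as wide as the distance between groups, with log2 fold changes of -0.61 ± 0.97 (SE, edgeR adjusted p = 0.813) for RvD6si and 0.61 ± 0.95 (SE, edgeR adjusted p = 0.827) for RvD6.

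**Figure D3:**
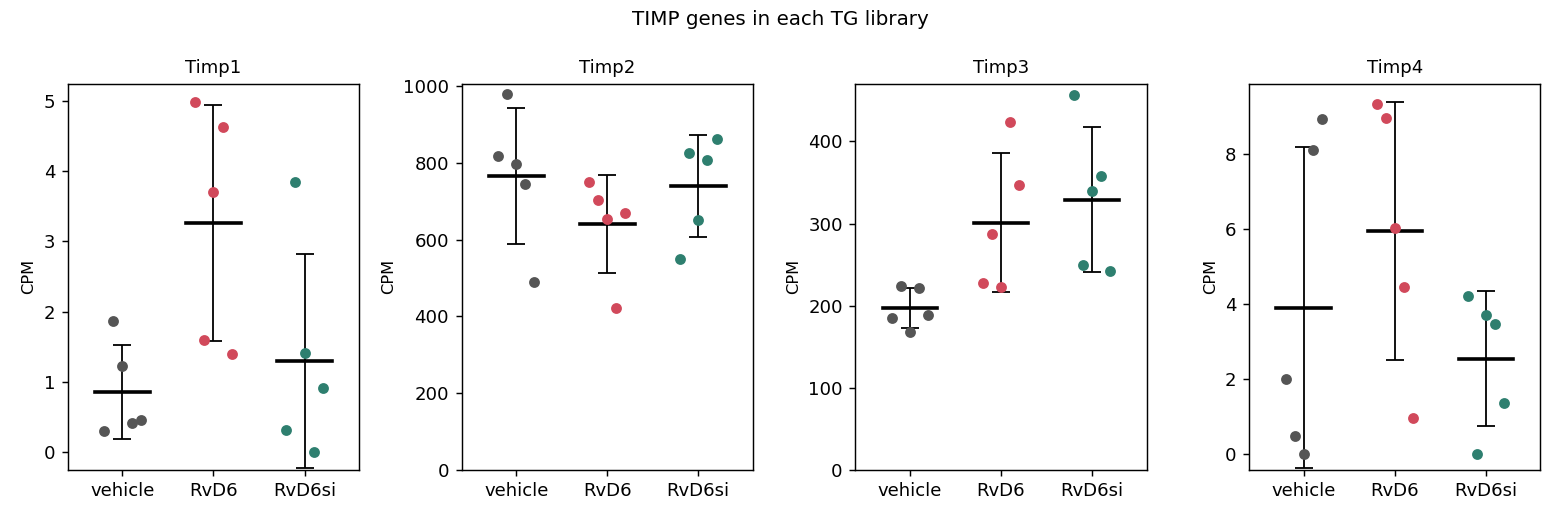
CPM of Timp1, Timp2, Timp3 and Timp4 in each library (points) with the group mean (line) and SD (error bar), 5 libraries per group, on linear axes that differ between panels. Timp3 is the TIMP whose RvD6si libraries (241.7 to 456 CPM) all lie above the vehicle libraries (167 to 224 CPM).

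Among secreted MMPs, the widest differences were those of 3 enzymes stored or made by cells of marrow and bone. Mmp13 (collagenase 3, made by osteoblasts and cartilage cells) and Mmp8 (the collagenase of neutrophil granules) lie on chromosome 9, with 275125 bases between their annotated ends. Mmp9 (gelatinase B, made by neutrophils and osteoclasts) lies on chromosome 2. Promoter sequence is shown for Mmp13 and Mmp8, which are among the 4 members higher in all RvD6 than in all vehicle libraries. Adam10 is another of the 4, and its promoter was also searched but is not printed. Mmp13 met the minimum of 10 reads only through RvD6, so its order of the groups is no support for a difference. The 200 bases given (RefSeq, GRCm38.p6, plus strand) run from 170 bases before to 30 bases after the start annotated in RefSeq. That start differs from the GENCODE start for some genes. Capitals mark matches to TGANTCA (AP-1, the same on both strands), TATAAA or GGGCGG (an Sp1 box), searched on both strands over the 300 bases of the RefSeq window.
Mmp13 promoter (chr9:7272344-7272543): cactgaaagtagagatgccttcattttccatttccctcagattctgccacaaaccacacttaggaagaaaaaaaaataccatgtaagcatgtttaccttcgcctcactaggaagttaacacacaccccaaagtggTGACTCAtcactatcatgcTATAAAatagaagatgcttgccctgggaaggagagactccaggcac
Mmp8 promoter (chr9:7558259-7558458): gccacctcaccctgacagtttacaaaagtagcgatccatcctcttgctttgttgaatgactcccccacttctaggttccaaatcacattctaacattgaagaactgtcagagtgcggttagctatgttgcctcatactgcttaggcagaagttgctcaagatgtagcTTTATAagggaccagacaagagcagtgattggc
The Mmp13 window held TGACTCA 35 bases and TATAAA 16 bases before the RefSeq start, counted to the first base of each match. The Mmp8 window held TTTATA, the reverse complement of TATAAA, which began 3 bases before that start and ran across it. GENCODE starts Mmp8 farther downstream, at 7558456. The matches do not overlap each other. Of 32851 mouse promoter windows of the same length, 7.81% held TGANTCA, 13.6% TATAAA and 35.7% GGGCGG. Of the 32 members with a window, 2 held TGANTCA (Mmp13 and Adam19), 4 held TATAAA (Mmp13, Mmp8, Adamts1 and Adamtsl2) and 25 held GGGCGG.

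Mmp13 was at 0.201, 0.248, 0.223, 1.10 and 0 CPM in the vehicle samples, 7.38, 9.57, 2.34, 9.08 and 8.77 CPM in the RvD6 samples and 0.623, 0, 0.640, 0 and 2.04 CPM in the RvD6si samples. The vehicle values rest on 2, 2, 2, 8 and 0 reads, the RvD6 values on 68, 78, 12, 53 and 63 reads and the RvD6si values on 4, 0, 5, 0 and 9 reads. All RvD6 libraries were above all vehicle libraries, one of 4 such members (3.77% of all genes did not overlap, 2.15% higher), and above all RvD6si libraries, the one member without overlap between the lipids (1.81% of all genes, 1.1% in this direction). Its mean was 54.8 reads in RvD6, against 2.80 in vehicle and 3.60 in RvD6si, so the minimum of 10 reads was met only through RvD6, and this order of the groups is a description and no support for a difference. The log2 fold change was 4.38 ± 0.97 (SE, edgeR adjusted p = 0.0967) with RvD6, and DESeq2 gave an adjusted p of 0.000463. With RvD6si it was 0.80 ± 0.97 (SE, edgeR adjusted p = 0.743). The 2 lipids differed by -3.58 ± 0.93 (SE, edgeR adjusted p = 0.173), with a 95% interval of -5.54 to -1.62, and DESeq2 gave an adjusted p of 0.00578.

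Mmp9 was at 1.71, 2.48, 4.79, 7.56 and 4.13 CPM in the vehicle samples, 33.8, 48.1, 22.8, 25.2 and 48.04 CPM in the RvD6 samples and 3.27, 1.65, 3.59, 5.35 and 39.6 CPM in the RvD6si samples. Each RvD6 library was above each vehicle library, whereas in RvD6si only replicate 15, the last value, was high. For RvD6 the log2 fold change was 3.11 ± 0.69 (SE, edgeR adjusted p = 0.0967), and DESeq2 gave an adjusted p of 0.0057. With RvD6si it was 1.33 ± 0.67 (SE, edgeR adjusted p = 0.345), and between the lipids it was -1.78 ± 0.65 (SE, edgeR adjusted p = 0.397), with a 95% interval of -3.15 to -0.41.

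Mmp8 was at 1.41, 16.8, 12.6, 23.2 and 7.00 CPM in the vehicle samples, 72.5, 77.03, 32.7, 32.4 and 97.6 CPM in the RvD6 samples and 3.58, 0, 2.56, 2.02 and 45.5 CPM in the RvD6si samples. The RvD6 libraries did not overlap with vehicle, and replicate 15 was again the one high RvD6si library. The log2 fold change was 2.37 ± 0.89 (SE, edgeR adjusted p = 0.266) with RvD6, -0.26 ± 0.89 (SE, edgeR adjusted p = 0.924) with RvD6si and -2.62 ± 0.91 (SE, edgeR adjusted p = 0.368) between the lipids (95% interval -4.54 to -0.70). DESeq2 called it in none of the 3 comparisons, with an adjusted p of 0.27 for RvD6.

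Without RvD6si replicate 15, edgeR called all 3 of these genes between the lipids, with log2 fold changes of -4.52 for Mmp13 (adjusted p = 0.0397), -3.37 for Mmp9 (adjusted p = 0.000917) and -4.97 for Mmp8 (adjusted p = 0.00429). Calls over all genes went from 39 to 156 between the lipids and from 0 to 51 for RvD6 against vehicle in that fit. The fit also called Mmp9 (edgeR adjusted p = 0.00847) and Mmp13 (edgeR adjusted p = 0.049) for RvD6 against vehicle, in a fit where all groups share one estimate of the spread. Mmp13 is among the members only through its RvD6 counts. Replicate 15 was singled out after its high Mmp8 and Mmp9 values were seen. The calls without it are therefore descriptions and no support for a difference. Against vehicle, the RvD6si fold change of Mmp9 went from 1.33 to -0.25, that of Mmp13 from 0.80 to -0.15 and that of Mmp8 from -0.26 to -2.61. The libraries high in Mmp8 and Mmp9 were those high in the neutrophil and erythroid lists, the 5 RvD6 libraries and RvD6si replicate 15. The part of these cells in the MMP values was not tested.

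**Figure D4:**
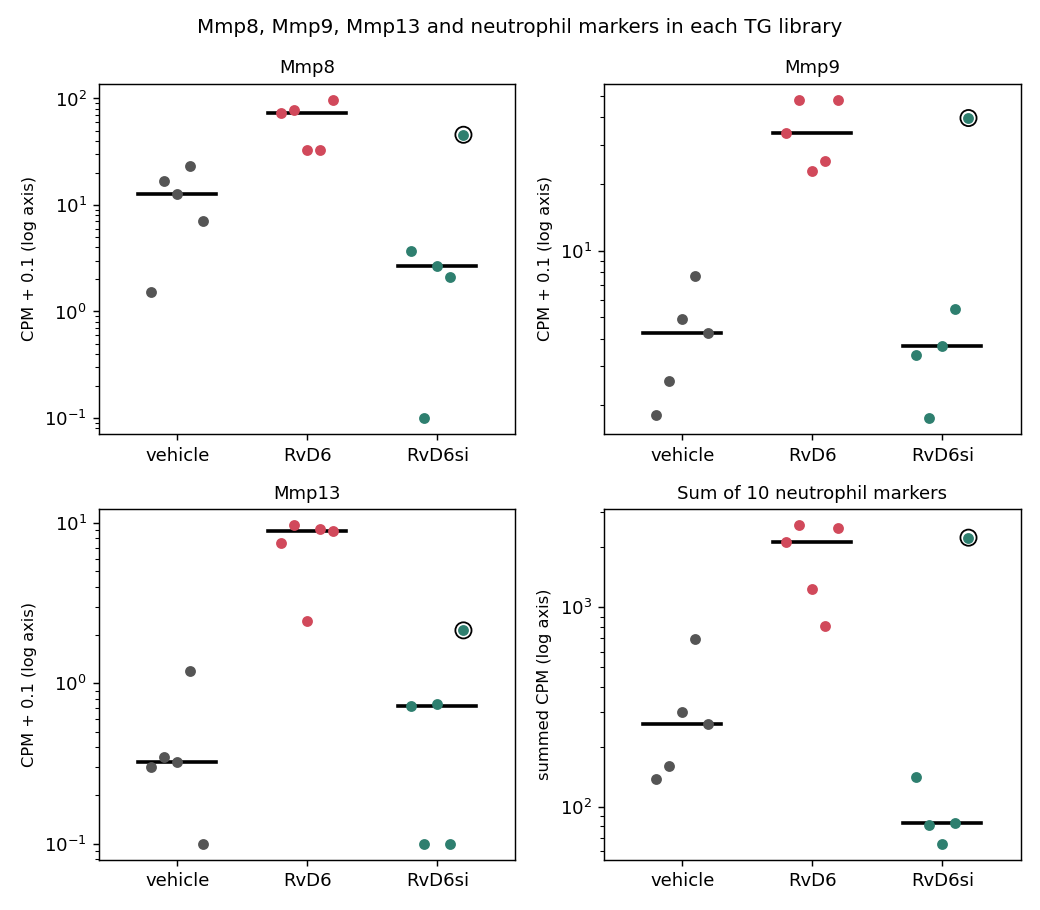
CPM plus 0.1 of Mmp8, Mmp9 and Mmp13 and the summed CPM of 10 neutrophil markers in each library (points; lines are group medians; log axes), 5 libraries per group, with RvD6si replicate 15 circled. The 5 RvD6 libraries lie above all vehicle libraries in each panel, and the circled library lies among them for Mmp8, Mmp9 and the markers.

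Mmp2 (gelatinase A, a constitutive enzyme of fibroblasts and Schwann cells) was the most abundant MMP per kb over all libraries, although Mmp8 had the higher mean in RvD6 (25.8 against 24.3 CPM per kb). It was at 46.8, 74.7, 30.2, 47.1 and 60.5 CPM in the vehicle samples, 85.5, 74.6, 85.9, 67.01 and 95.8 CPM in the RvD6 samples and 61.2, 65.4, 74.2, 73.99 and 54.8 CPM in the RvD6si samples. Of the RvD6 libraries, 3 of 5 exceeded the highest vehicle library, and no RvD6si library did. The log2 fold change was 0.66 ± 0.20 (SE, edgeR adjusted p = 0.177) with RvD6, where DESeq2 gave an adjusted p of 0.0475, and 0.35 ± 0.20 (SE, edgeR adjusted p = 0.403) with RvD6si. The lipids differed by -0.31 ± 0.20 (SE, edgeR adjusted p = 0.693), with an interval of -0.72 to 0.10. The summed fibroblast markers overlapped between RvD6 (1379 to 2262 CPM) and vehicle (1370 to 1671 CPM), with a higher RvD6 mean for 6 of 6 markers. The other secreted MMPs were low. Mmp11 (stromelysin 3) had group means of 1.93 to 2.23 CPM, and Mmp19 had 1.15 to 2.54 CPM. Mmp28 (epilysin) had 1.48 to 2.79 CPM. These 3 genes each share exonic bases with a gene on the opposite strand, and none had an unadjusted p under 0.05 in any comparison.

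Membrane-bound MMPs act at the cell surface. Mmp14 encodes MT1-MMP, which cuts collagen and activates pro-MMP2, and its promoter is printed with that of Timp3 because both were called by DESeq2 with RvD6si and because the encoded proteins act on each other. The rules for capitals are those given above.
Mmp14 promoter (chr14:54431428-54431627): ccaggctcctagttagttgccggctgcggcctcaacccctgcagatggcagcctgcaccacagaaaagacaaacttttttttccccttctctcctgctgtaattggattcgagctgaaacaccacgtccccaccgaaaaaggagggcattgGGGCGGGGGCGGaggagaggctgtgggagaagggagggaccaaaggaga
Timp3 promoter (chr10:86300242-86300441): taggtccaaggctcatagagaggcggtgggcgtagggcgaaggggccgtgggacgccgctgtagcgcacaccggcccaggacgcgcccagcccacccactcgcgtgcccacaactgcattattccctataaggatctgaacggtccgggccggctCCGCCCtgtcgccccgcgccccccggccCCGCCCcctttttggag
Both windows held the GC box and neither held TGANTCA or TATAAA. The Mmp14 window held GGGCGG 19 and 13 bases before the RefSeq start, side by side. The Timp3 window held the reverse complement CCGCCC 15 bases before the RefSeq start and at base 14 counted from it. GENCODE starts Timp3 upstream of that start, at 86300372, so both boxes lie inside the gene as annotated there. For Mmp14, the GENCODE start is downstream of the RefSeq start, at 54431612.

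Mmp14 was at 14.1, 22.4, 11.4, 16.4 and 5.96 CPM in the vehicle samples, 21.6, 20.4, 20.5, 17.5 and 24.8 CPM in the RvD6 samples and 21.2, 30.7, 24.3, 29.5 and 26.96 CPM in the RvD6si samples. Of the RvD6si libraries, 4 of 5 were above the highest vehicle library, and so was 1 of 5 RvD6 libraries. The log2 fold change was 0.92 ± 0.27 (SE, edgeR adjusted p = 0.0979) with RvD6si, where DESeq2 gave an adjusted p of 0.0156, and 0.58 ± 0.27 (SE, edgeR adjusted p = 0.347) with RvD6. The difference between the lipids was 0.34 ± 0.26 (SE, edgeR adjusted p = 0.76), with an interval of -0.21 to 0.89. Summed fibroblast markers, a cell type that makes Mmp14 and Mmp2, were 1182 to 1603 CPM in RvD6si and overlapped with vehicle. The RvD6si mean was higher for 5 of 6 markers and lower for Dcn, the most abundant of them (1004 against 1087 CPM in vehicle). Their part in the Mmp14 values was not tested.

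Mmp16 (MT3-MMP, known from brain) was at 9.06, 7.58, 6.35, 10.2 and 12.8 CPM in the vehicle samples, 8.68, 17.9, 8.18, 10.97 and 6.96 CPM in the RvD6 samples and 14.02, 20.3, 18.1, 17.3 and 13.1 CPM in the RvD6si samples. All RvD6si libraries were above all vehicle libraries, while only 1 of 5 RvD6 libraries was. The log2 fold change was 0.85 ± 0.28 (SE, edgeR adjusted p = 0.145) with RvD6si (DESeq2 adjusted p = 0.0458) and 0.20 ± 0.28 (SE, edgeR adjusted p = 0.808) with RvD6. The lipids differed by 0.65 ± 0.28 (SE, edgeR adjusted p = 0.507) at an unadjusted p of 0.0337, with an interval of 0.056 to 1.25.

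Mmp24 (MT5-MMP, a neural enzyme found in sensory neurons) was at 11.6, 12.3, 2.01, 12.6 and 8.94 CPM in the vehicle samples, 5.97, 10.9, 13.3, 5.48 and 4.32 CPM in the RvD6 samples and 8.73, 8.46, 12.9, 14.6 and 10.9 CPM in the RvD6si samples. Its groups overlapped, with log2 fold changes of 0.23 ± 0.41 (SE, edgeR adjusted p = 0.838) for RvD6si and -0.25 ± 0.41 (SE, edgeR adjusted p = 0.841) for RvD6, and it shares 637 exonic bases with an opposite-strand gene. Mmp15 (MT2-MMP) was at 49.9, 35.3, 39.6, 36.3 and 53.3 CPM in the vehicle samples, 24.4, 63.3, 52.2, 30.7 and 52.9 CPM in the RvD6 samples and 35.99, 71.3, 29.6, 42.8 and 41.7 CPM in the RvD6si samples. Its log2 fold changes, 0.0477 ± 0.26 (SE) and 0.0589 ± 0.26 (SE), were smaller than their errors. Mmp25 (the glycolipid-anchored MT6-MMP of leukocytes) had group means of 3.83 ± 2.08 CPM (SD, n = 5) in vehicle, 6.85 ± 1.97 in RvD6 and 8.57 ± 2.99 in RvD6si. Of its RvD6si and RvD6 libraries, 4 of 5 each were above all vehicle libraries, with log2 fold changes of 1.16 ± 0.43 (SE, edgeR adjusted p = 0.187) and 0.84 ± 0.43 (SE, edgeR adjusted p = 0.405). Mmp17, the other glycolipid-anchored MMP, had group means of 4.63 to 5.49 CPM. Mmp23, which is anchored by its other end, had 3.74 to 5.89 CPM, and neither had an unadjusted p under 0.05.

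The proteolytic ADAMs shed membrane proteins. Adam10, the main sheddase of Notch receptors, neural cadherin and the prion protein and an alpha-secretase of APP, was the most abundant enzyme of the whole set, at 132, 144, 138, 120.1 and 114 CPM in the vehicle samples, 149, 208, 149.8, 269 and 207 CPM in the RvD6 samples and 227, 205, 117, 182 and 163 CPM in the RvD6si samples. All 5 RvD6 libraries exceeded all vehicle libraries, and 4 of 5 RvD6si libraries did. Its log2 fold change was 0.60 ± 0.18 (SE, edgeR adjusted p = 0.186) with RvD6 and 0.46 ± 0.18 (SE, edgeR adjusted p = 0.216) with RvD6si, and DESeq2 gave adjusted p of 0.0647 and 0.114. The 2 lipids differed by -0.14 ± 0.18 (SE, edgeR adjusted p = 0.876), with an interval of -0.52 to 0.25.

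Adam17, which releases TNF and shares many substrates with ADAM10, was lower at 14.4, 20.1, 14.5, 24.2 and 19.1 CPM in the vehicle samples, 17.03, 14.4, 21.6, 46.3 and 27.3 CPM in the RvD6 samples and 34.7, 13.5, 28.4, 24.6 and 27.9 CPM in the RvD6si samples. The groups overlapped, with log2 fold changes of 0.48 ± 0.30 (SE, edgeR adjusted p = 0.463) for RvD6si and 0.45 ± 0.30 (SE, edgeR adjusted p = 0.543) for RvD6, the latter being 0.11 without RvD6 replicate 9. It shares 311 exonic bases with Iah1 on the opposite strand. Adam9, a widely expressed sheddase, was at 20.8, 20.7, 25.3, 18.8 and 26.7 CPM in the vehicle samples, 33.8, 41.95, 17.3, 50.7 and 25.9 CPM in the RvD6 samples and 84.6, 44.4, 30.99, 23.99 and 42.6 CPM in the RvD6si samples. Of the RvD6si libraries, 4 of 5 were above all vehicle libraries, replicate 11 being the highest. edgeR gave a log2 fold change of 1.01 ± 0.31 (SE, edgeR adjusted p = 0.115) with RvD6si, where DESeq2 gave an adjusted p of 0.0268, and 0.60 ± 0.31 (SE, edgeR adjusted p = 0.415) with RvD6. It ranged from 0.66 to 1.17 for RvD6si when any 1 library was left out. The lipids differed by 0.41 ± 0.31 (SE, edgeR adjusted p = 0.753), with an interval of -0.23 to 1.06, and by 0.0639 without RvD6si replicate 11.

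Adam15 had group means of 42.1 to 49.9 CPM and Adam19 (meltrin beta, which acts on neuregulin) had 24.7 to 30.4 CPM. Adam12 (meltrin alpha) had 2.04 to 3.97 CPM and Adam8, an ADAM of leukocytes, had 3.63 to 5.30 CPM. None of these 4 had an unadjusted p under 0.05 in any comparison, and the exons of Adam15, Adam19 and Adam8 overlap opposite-strand genes. Adam33 was the one member lower with RvD6si at an unadjusted p under 0.05. It was at 2.21, 0.994, 1.23, 2.47 and 2.87 CPM in vehicle, 5.42, 0.981, 2.34, 1.89 and 2.37 CPM in RvD6 and 0.312, 0, 1.41, 0.144 and 0.906 CPM in RvD6si, and the RvD6si values rest on 2, 0, 11, 1 and 4 reads. Its log2 fold change was -1.82 ± 0.79 (SE, edgeR adjusted p = 0.264) against vehicle and -2.23 ± 0.79 (SE, edgeR adjusted p = 0.378) against RvD6.

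The ADAMs without the zinc motif were receptors rather than enzymes. Adam22, the axonal and synaptic receptor of LGI1 and LGI4, was at 117, 105, 121, 85.5 and 110.4 CPM in the vehicle samples, 122, 161, 111, 113 and 98.9 CPM in the RvD6 samples and 172, 191, 114, 149 and 149 CPM in the RvD6si samples. Of the RvD6si libraries 4 of 5 were above the highest vehicle library, and 2 of 5 were above the highest RvD6 library. edgeR gave a log2 fold change of 0.52 ± 0.16 (SE, edgeR adjusted p = 0.115) with RvD6si, where DESeq2 gave an adjusted p of 0.0315, and 0.17 ± 0.16 (SE, edgeR adjusted p = 0.688) with RvD6. The lipids differed by 0.36 ± 0.16 (SE, edgeR adjusted p = 0.53) at an unadjusted p of 0.0396, with an interval of 0.019 to 0.69. With the trend on gene length removed, the RvD6si fold change of Adam22, a gene of 14348 exonic bases, was 0.37 and that with RvD6 was -0.0228.

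Adam23, a receptor of the same ligands, was at 160.5, 150.3, 123, 113 and 115 CPM in the vehicle samples, 134, 178, 148, 122 and 144 CPM in the RvD6 samples and 197, 223, 121, 143 and 169 CPM in the RvD6si samples. Of the RvD6si libraries 3 of 5 were above all vehicle libraries, with a log2 fold change of 0.37 ± 0.17 (SE, edgeR adjusted p = 0.295). It was 0.13 ± 0.17 (SE, edgeR adjusted p = 0.784) with RvD6. Adam11 was at 67.9, 64.8, 53.2, 37.5 and 16.5 CPM in the vehicle samples, 40.1, 52.7, 53.4, 51.6 and 38.8 CPM in the RvD6 samples and 59.8, 79.8, 50.5, 54.5 and 60.7 CPM in the RvD6si samples. The groups overlapped, with log2 fold changes of 0.35 ± 0.27 (SE, edgeR adjusted p = 0.57) for RvD6si and -0.0212 ± 0.27 (SE, edgeR adjusted p = 0.982) for RvD6. Without vehicle replicate 5 the RvD6si value was 0.13. Adam2, a sperm surface protein, had group means of 3.98 to 6.19 CPM and no unadjusted p under 0.05.

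The ADAMTS enzymes act in the matrix. Among those that cut proteoglycans, Adamts5 (aggrecanase 2) was the most abundant, at 107, 90.3, 76.8, 94.3 and 109 CPM in the vehicle samples, 87.98, 145, 86.3, 128 and 152 CPM in the RvD6 samples and 134, 156, 111, 156 and 104 CPM in the RvD6si samples. Of the RvD6si libraries 4 of 5 and of the RvD6 libraries 3 of 5 exceeded all vehicle libraries, with log2 fold changes of 0.47 ± 0.18 (SE, edgeR adjusted p = 0.205) and 0.33 ± 0.18 (SE, edgeR adjusted p = 0.445). Adamts1 lies next to it on chromosome 16, with 53060 bases between them, and was at 12.2, 17.4, 9.81, 9.35 and 8.94 CPM in the vehicle samples, 11.2, 14.96, 15.01, 28.6 and 14.2 CPM in the RvD6 samples and 20.3, 19.9, 10.4, 22.7 and 7.70 CPM in the RvD6si samples. Its fold changes were 0.49 ± 0.33 (SE, edgeR adjusted p = 0.485) with RvD6si and 0.54 ± 0.33 (SE, edgeR adjusted p = 0.495) with RvD6.

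Adamts15, another proteoglycan-cutting enzyme, was at 8.96, 9.32, 5.13, 4.67 and 8.37 CPM in the vehicle samples, 8.03, 10.3, 12.1, 12.00 and 11.8 CPM in the RvD6 samples and 10.1, 19.7, 14.5, 11.4 and 9.52 CPM in the RvD6si samples. All 5 RvD6si libraries and 4 of 5 RvD6 libraries were above all vehicle libraries, although RvD6si replicate 15 exceeded the highest vehicle library by less than 1 CPM. Its log2 fold change was 0.84 ± 0.28 (SE, edgeR adjusted p = 0.148) with RvD6si, where DESeq2 gave an adjusted p of 0.0443, and 0.57 ± 0.28 (SE, edgeR adjusted p = 0.394) with RvD6. The lipids differed by 0.27 ± 0.28 (SE, edgeR adjusted p = 0.832), with an interval of -0.32 to 0.86. Its neighbour Adamts8, 20110 bases away on the other strand, had group means of 1.07 to 2.05 CPM and log2 fold changes of -0.53 ± 0.85 (SE) and -0.92 ± 0.86 (SE).

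**Figure D5:**
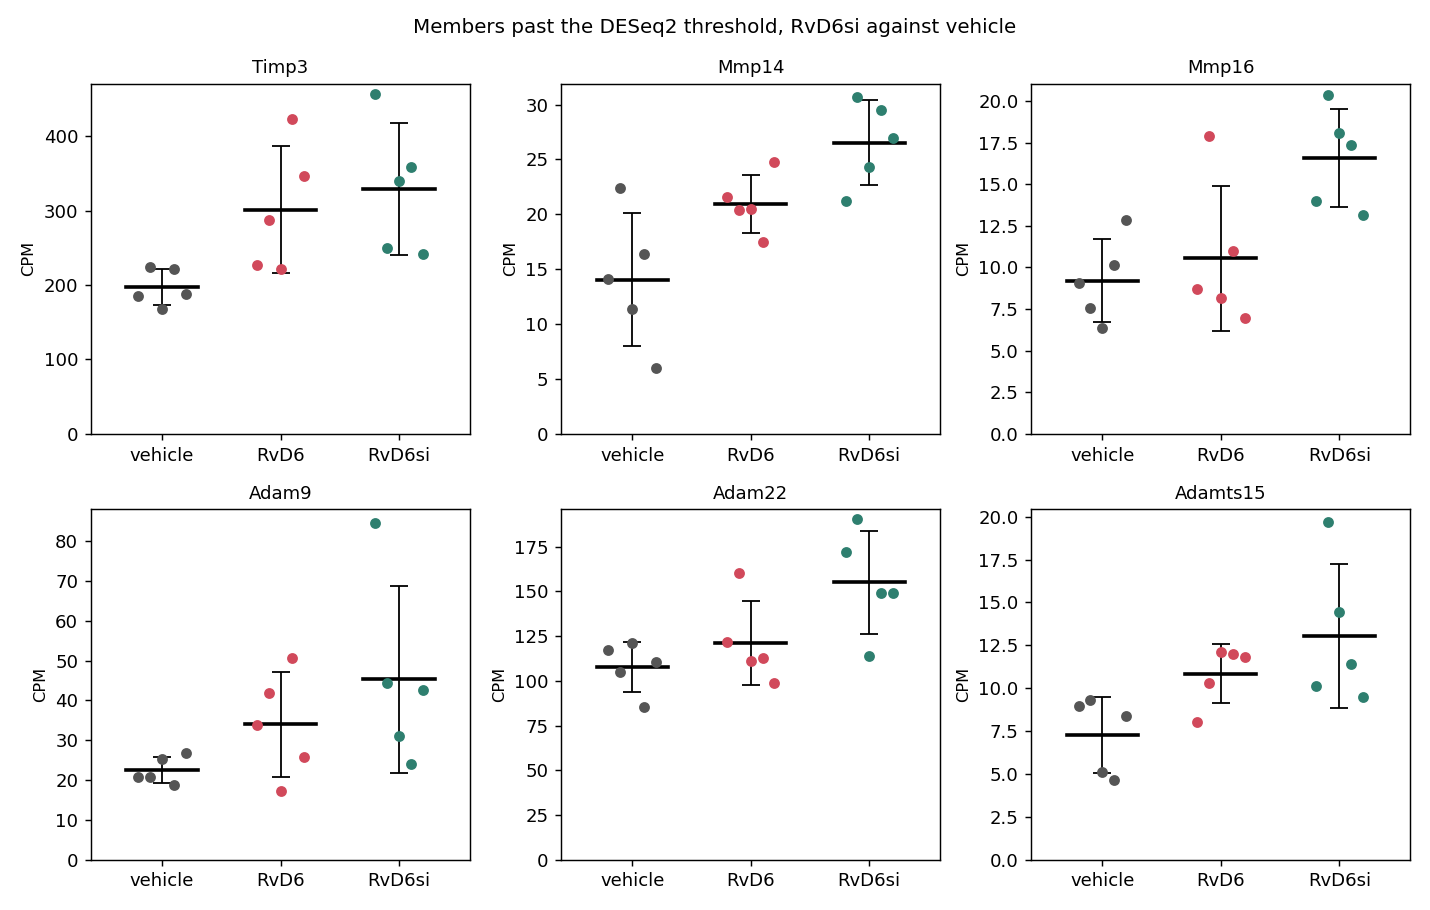
CPM of Timp3, Mmp14, Mmp16, Adam9, Adam22 and Adamts15, the 6 members called by DESeq2 for RvD6si against vehicle, in each library (points) with group mean (line) and SD (error bar), 5 libraries per group, on linear axes that differ between panels. The RvD6si libraries of Timp3, Mmp16 and Adamts15 do not overlap with vehicle, and RvD6 lies between the other groups in mean for all 6 genes. The genes were chosen by their difference between RvD6si and vehicle, so this order is partly fixed by the choice.

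The other ADAMTS genes were low and mostly imprecise. Adamts4 (aggrecanase 1) had group means of 3.58 to 6.46 CPM, and Adamts20 had 7.71 to 8.16 CPM. Adamts9 had 2.29 to 6.40 CPM and was lower with RvD6si than with RvD6 at an unadjusted p of 0.0426, with a log2 fold change of -1.46 ± 0.67 (SE, edgeR adjusted p = 0.54). Of the procollagen amino-propeptidases, Adamts2 had 7.71 to 12.7 CPM, Adamts3 had 3.02 to 4.33 CPM and Adamts14 had 0.594 to 2.43 CPM. Adamts7 had 3.93 to 5.19 CPM and Adamts12, a related enzyme, had 1.98 to 3.36 CPM. Adamts10, which binds fibrillin, had 3.27 to 3.59 CPM. Adamts16 had 1.71 to 3.10 CPM and Adamts17 had 1.59 to 4.26 CPM. Apart from Adamts9, none of these enzymes had an unadjusted p under 0.05 in any comparison. The exons of Adamts4, Adamts7, Adamts8 and Adamts9 overlap opposite-strand genes, so part of their reads may be unassigned or belong to the partner.

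The ADAMTS-like proteins keep the matrix-binding parts of ADAMTS enzymes and lack the catalytic domain. Adamtsl5 was the most abundant, at 36.3, 67.6, 58.2, 68.4 and 66.5 CPM in the vehicle samples, 65.4, 45.8, 54.2, 65.6 and 51.5 CPM in the RvD6 samples and 57.03, 56.8, 67.2, 59.97 and 41.5 CPM in the RvD6si samples. Its group means were nearly level, with log2 fold changes of -0.0695 ± 0.19 (SE, edgeR adjusted p = 0.898) for RvD6si and -0.0718 ± 0.19 (SE, edgeR adjusted p = 0.908) for RvD6. Adamtsl1 had group means of 8.04 to 10.5 CPM, Adamtsl2 had 6.50 to 9.04 CPM and Adamtsl4 had 2.96 to 6.11 CPM. Adamtsl3 had 1.28 to 3.94 CPM, with 4 of 5 RvD6si libraries above all vehicle libraries and log2 fold changes of 1.62 ± 0.76 (SE, edgeR adjusted p = 0.303) for RvD6si and 1.45 ± 0.75 (SE, edgeR adjusted p = 0.415) for RvD6. The vehicle values of Adamtsl3 rest on 2, 28, 12, 10 and 0 reads.

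The remaining 33 genes that fitted the rule were below the minimum, and 16 of them had no read in any library. The nearest below it were Adam5 and Adamts6, with means of 8.67 and 8.53 reads, and the nearest above it were Adamts14 (10.07 reads) and Adamts8 (12). Among MMPs, Mmp12, Mmp3, Mmp10, Mmp21 and Mmp27 had means of 0.667 to 5.20 reads, and Mmp1b, Mmp7 and Mmp20 had no read. Of the 21 Adam genes below the minimum, many of them known from testis, 12 had no read. Adamts18 and Adamts13 had means of 6.07 and 1.33 reads, and Adamts19 had none. At this depth, expression of these genes was not measured well enough to compare the groups.

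Partner genes of these enzymes were examined in 4 lists, none of which had a member past the adjusted threshold of edgeR in any comparison. Their counts at an unadjusted p under 0.05 stand beside 8.69% of all genes higher and 7.3% lower with RvD6si, and 7.63% higher and 5.99% lower with RvD6. Of 20 tested regulators and activators (such as Reck, Furin and the tetraspanins that carry ADAM10), 1 was higher with RvD6si at an unadjusted p under 0.05, and 1 was higher and 1 lower with RvD6. The median log2 fold changes were -0.022 and 0.014. Of 11 LGI ligands and axonal partners of the receptor ADAMs, 3 were higher with RvD6si and none with RvD6 at the same unadjusted p (8.69% and 7.63% of all genes), with median log2 fold changes of 0.087 and -0.035. Cntn2, an axonal adhesion protein of the juxtaparanode, was 115 ± 10.7 CPM (SD, n = 5) in vehicle, 99.3 ± 17.5 CPM in RvD6 and 147 ± 19.7 CPM in RvD6si. Its RvD6si libraries were above all RvD6 libraries, with a log2 difference of 0.56 ± 0.14 (SE, edgeR adjusted p = 0.156) and a DESeq2 adjusted p of 0.0219 (0.974% of all genes called).

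Of 16 tested substrates shed by ADAM10 and ADAM17, 4 were higher and 1 lower with RvD6si at an unadjusted p under 0.05, and 1 was higher with RvD6 (8.69% and 7.3% of all genes with RvD6si, 7.63% with RvD6). The medians were 0.29 and 0.18 on the log2 scale. DESeq2 called Aplp2, an APP relative, higher with RvD6si (512 ± 38.95 CPM in vehicle and 664 ± 92.1 CPM in RvD6si, SD, n = 5), with a log2 fold change of 0.37 ± 0.12 (SE, edgeR adjusted p = 0.117) and a DESeq2 adjusted p of 0.0207 (4.6% of all genes called higher). Of 11 tested matrix genes and ADAMTS substrates, 2 were higher with RvD6si and 4 with RvD6 (8.69% and 7.63% of all genes), with medians of 0.26 and 0.33. DESeq2 called Col1a1 and Col1a2, the chains of type I collagen, higher with RvD6 (1.43% of all genes called higher). Col1a1 was 10.8 ± 6.85 CPM in vehicle and 50.8 ± 22.1 CPM in RvD6 (SD, n = 5), with a log2 fold change of 2.23 ± 0.49 (SE, edgeR adjusted p = 0.0967) and a DESeq2 adjusted p of 0.00134. Col1a2 was 161 ± 36.9 CPM and 310.4 ± 70.00 CPM, with a log2 fold change of 0.94 ± 0.21 (SE, edgeR adjusted p = 0.0967) and a DESeq2 adjusted p of 0.0035. Both chains are also markers of fibroblasts and bone, and the bone markers were higher in mean with RvD6 for 5 of 5 genes. Their part in the collagen values was not tested.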

How the data were processed

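Per the labels and the methods of the study, RNA of each TG was amplified by an adapted Smart-seq2 protocol from oligo-dT, aligned with Rsubread to GRCm38 with GENCODE release M22 and counted with featureCounts (Subread 1.6.5 in the processing notes, 1.5.0-p1 in the file header). The authors deposited raw read counts per gene with the exonic length; the sources used here mention no molecular identifiers. No strand option is given. Symbols came from GENCODE M21, which named 99.8% of identifiers. The main test was the edgeR 4.0.16 quasi-likelihood F test (R 4.3.3) with 15 samples and 3 groups in one fit, TMM, filterByExpr (minimum count 10, minimum total 15, 16567 genes) and Benjamini-Hochberg adjustment over all genes at 0.05. DESeq2 1.42.0 was an alternative, beside a fit of only the 2 groups compared, RLE scaling, no filter, at least 10 counts in every sample, removal of a length trend (lowess span 0.3) and leaving out each library. No batch or pairing is given. The tests were checked on simulated data.

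Every member is named with a level. Values in every sample are given for members past the adjusted threshold in edgeR or DESeq2, members whose lipid and vehicle groups did not overlap at an unadjusted p under 0.05, the 3 highest per family, and 13 genes fixed as a list (the TIMPs, Mmp2, Mmp9, Mmp14, Mmp24, Adam10, Adam17, Adam11, Adam22 and Adam23). Adam33, Mmp25, Adamtsl3 and Adamts9 were singled out after their values were seen. The members, the 4 partner lists and the 12 marker lists were chosen with earlier results of these data known. Promoter windows are from RefSeq (GRCm38.p6), and coding bases from GENCODE M21 transcripts. The authors' own comparisons were not used.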

Additional observations from a re-analysis of the deposited data

Results flagged for a closer look

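Of 150 groups of 5 libraries (50 members in 3 groups), 10 held a library far from the other 4 by Dixon's criterion (a gap to the nearest library above 0.71 of the group's range). Chance flags about 1 in 20 groups.

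RvD6si replicate 15 was the high library for 3 members of leukocytes, with 45.5 CPM for Mmp8 (next highest 3.58), 39.6 CPM for Mmp9 (next highest 5.35) and 10.9 CPM for Adam8 (next highest 2.49). The same library held 2240 CPM of neutrophil markers against at most 140.4 CPM in the other RvD6si libraries, and the part of those cells was not tested. Adam8 was also at 10.7 CPM in vehicle replicate 1, whose neutrophil sum of 139 CPM was the lowest in vehicle. In RvD6 replicate 8, whose neutrophil sum was 1231 CPM, Adam8 was at 0.585 CPM. RvD6 replicate 9 was high for Adamts1 (28.6 CPM, next 15.0) and Adamtsl4 (11.8 CPM, next 4.73). RvD6si replicate 13 was high for Adam15 (60.5 CPM, next 49.7) and Adamts14 (2.05 CPM, next 0.467). RvD6si replicate 14 was high for Adamtsl2 (16.3 CPM, next 6.05), and RvD6si replicate 12 for Adamts16 (11.5 CPM, next 1.88). Vehicle replicate 4 was high for Mmp13 at 1.10 CPM (next 0.248), and it also had the highest neutrophil sum of the vehicle libraries at 698 CPM. No member passed the adjusted threshold of edgeR between the lipids.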

How the results depend on the processing

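No paired analysis was possible because the 3 groups share no replicate numbers. Against the 0 members called by edgeR with RvD6si, DESeq2 called 6 and the filter of at least 10 counts in every sample called 1 (Timp3), while calls over all genes went from 111 to 909 and 315. With RvD6, DESeq2 called 3, the 2-group fit 2, the fit without a filter 2 (Mmp9 and Mmp13 in both) and the filter of 10 counts 1 (Mmp9), while calls over all genes went from 0 to 367, 38, 56 and 24. Between the lipids DESeq2 called 1 (188 of all genes, against 39). Leaving out 1 library gave 0 to 2 calls with RvD6 and 0 to 3 between the lipids, and only the fit without RvD6si replicate 15 called any. Mmp13 is among these calls, although it is a member only through its RvD6 counts. The count below an unadjusted p of 0.05 between the lipids was 3 with the filter of 10 counts, which left 26 members, and 4 to 7 with 1 library left out. The share of all genes below that p in these fits is not given here, so these counts cannot be set against it. With the filter, edgeR calls over all genes between the lipids went from 39 to 23. The cause of these moves in calls and counts was not tested, apart from the smaller number of members under the filter.

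Some fold changes, none of them called by edgeR, turned in sign. With the length trend removed, Mmp15 was -0.0793 with RvD6si and -0.043 with RvD6, and Adam23 and Adam22 were -0.0525 and -0.0228 with RvD6. Adam11 with RvD6 was 0.0127 under the filter of 10 counts. Between the lipids, Adamtsl5 was -0.00545 with DESeq2, -0.00679 with RLE, -0.0223 under the filter and -0.0442 with the trend removed, and Mmp15 was 0.00491 in the 2-group fit and 0.0184 without a filter. With 1 library left out, RvD6si fold changes ranged from -2.61 to 0.11 (Mmp8), -0.25 to 1.65 (Mmp9), -0.15 to 1.76 (Mmp13), -0.19 to 0.16 (Mmp15), -0.0242 to 0.36 (Mmp24), -0.37 to 1.10 (Timp1), -0.17 to 0.0451 (Timp2) and -0.21 to 0.0216 (Adamtsl5). RvD6 fold changes ranged from -0.24 to 0.13 (Adam11), -0.10 to 0.21 (Mmp15) and -0.0826 to 0.35 (Mmp16). Differences between the lipids ranged from -0.23 to 0.0076 (Adam10), -0.12 to 0.37 (Adam17), -0.0697 to 0.0946 (Adamtsl5), -0.20 to 0.24 (Adamts1), -0.25 to 0.15 (Mmp15) and -0.0161 to 0.29 (Timp3). Of the 71 fold changes checked this way, 17 turned in sign and a further 22 moved by over 1.5 times with some library left out. In the fit of all 15 libraries, edgeR called none of the 71. Without RvD6si replicate 15 it called Mmp9 and Mmp13 for RvD6 against vehicle, and Mmp8, Mmp9 and Mmp13 between the lipids. The 95% intervals of Timp1, Timp4, Mmp8, Mmp13, Mmp17, Mmp11, Mmp19 and Adamts4, Adamts7, Adamts8, Adamts10, Adamts12, Adamts14 and Adamts16 for RvD6si against vehicle reached past a log2 fold change of 1 in both directions.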

Other observations

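Some partner genes outside the members had an unadjusted p under 0.05 and were picked for mention after their values were seen. Notch1, a receptor cut by ADAM10, was 61.3 ± 14.9 CPM (SD, n = 5) in vehicle, 55.4 ± 15.3 CPM in RvD6 and 40.3 ± 3.48 CPM in RvD6si. All RvD6si libraries lay below all vehicle libraries (2.46% of all genes did), with a log2 fold change of -0.60 ± 0.20 (SE, edgeR adjusted p = 0.144). Notch2 was higher in mean with RvD6 alone, with 19.2 ± 5.89 CPM in vehicle, 32.6 ± 8.31 CPM in RvD6 and 18.8 ± 4.32 CPM in RvD6si, a log2 fold change of 0.76 ± 0.25 (SE, edgeR adjusted p = 0.205) with RvD6 and -0.79 ± 0.25 (SE, edgeR adjusted p = 0.309) between the lipids. Fbn1, the microfibril protein fibrillin 1 to which ADAMTS10 and ADAMTS-like proteins bind, was 15.7 ± 2.19 CPM in vehicle and 24.1 ± 5.89 CPM in RvD6si, without overlap, with a log2 fold change of 0.62 ± 0.25 (SE, edgeR adjusted p = 0.226). Dlg2, a scaffold protein linked to ADAM22, was 39.4 ± 7.54 CPM and 62.5 ± 18.2 CPM, with 0.67 ± 0.23 (SE, edgeR adjusted p = 0.161). None of these passed the adjusted threshold of edgeR or DESeq2.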
